A study of Nematostella vectensis with 10 samples.

Results

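*cnido-jun* (NV2.12897) and *cnido-fos* (NV2.19749) are the AP-1 type bZIP genes in the study's list of published cnidocyte genes, and they were followed here in gastrulae of the sea anemone *Nematostella vectensis* after knockdown of the zinc finger gene *Nvznf845*. They were taken by gene number, as 2 of the 24520 genes in the files, and *ATF2-like1* (NV2.11500), the other gene of the list with a bZIP name, was set beside them. Messenger RNA of whole wild-type embryos at 28 hpf, raised at 24 °C, was sequenced in 10 libraries of about 1000 embryos each. In 5 of them the embryos had been injected with *Nvznf845* shRNA, and in the other 5 with a control shRNA, which the labels call scramble RNA. Libraries with the same replicate number form a pair, 1 of each treatment, from the same batch. Pairs 4 and 5 share their batch, and the other 3 pairs have a batch each. The embryos were injected before cleavage with a single shRNA against *Nvznf845*, so a library averages over the whole embryo, cnidocytes and all other cells alike.

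The bZIP proteins bind DNA as dimers, held together by a leucine zipper beside a basic region that contacts the DNA. In vertebrates, Jun and Fos proteins form the AP-1 dimer: Jun can pair with itself or with Fos, whereas Fos needs a partner, and ATF2 can also dimerize with Jun. AP-1 genes are widely known as early responders to growth signals and stress. Cnidocytes are the stinging cells of cnidarians, each built around a capsule, and in the sea anemone they arise in the ectoderm. The comparison made here asks whether the transcripts of the possible partners move together when *Nvznf845*, studied here for its part in cnidocyte development, is knocked down.

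The targeted transcript, *Nvznf845* (NV2.17877), was at 51.5 to 59.2 CPM in the control libraries and at 6.80 to 12.9 CPM in the knockdown libraries, where CPM are read counts as a rate of library size, the sizes corrected with TMM factors (the trimmed mean of M values). Total counts per library ran from 18891111 to 49293261. Both libraries of pair 3 stand apart, with 56.0% and 67.4% of their counts in their 10 most abundant genes against 6.24% to 33.3% in the other 8. After TMM correction its knockdown library was the smallest of all, at 13091187 counts. The fold changes and ratios of the bZIP genes are therefore also given without this pair. As for the labelled tissue, 6 structural genes of the cnidocyte capsule summed to 751 to 1007 CPM in the controls and to 32.5 to 49.5 CPM after knockdown, and none of them was at 0 in the controls. All 6 were called lower, as were 4.23% of all genes tested, the call being defined below. These 6 genes were chosen with earlier results of these data known. In whole embryos, fewer cnidocytes and less RNA per cnidocyte cannot be told apart, and the part of cell number in the results that follow was not tested.

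The clearest difference among these genes was that *cnido-jun* nearly disappeared while *cnido-fos* stayed near its control level. The study's list already marks *cnido-jun* as regulated by *Nvznf845* and by the forkhead gene *foxE-like*. It marks *cnido-fos* as regulated by *foxE-like* alone and gives *ATF2-like1* no mark. *cnido-jun* was at 14.1, 15.9, 7.62, 12.6 and 12.1 CPM in control libraries 1 to 5. In knockdown libraries 1 to 5 it was at 0.0438, 0.0981, 0.0764, 0.221 and 0.148 CPM, which are 1, 3, 1, 6 and 6 counts. No control library had fewer than 219 counts, so the groups were far apart, with the control of pair 3 lowest among the controls. The level fell from 12.5 ± 3.08 to 0.117 ± 0.0692 CPM (SD, n = 5 each), or −6.59 on the log2 scale (SE 0.332, 95% interval −7.32 to −5.86; edgeR quasi-likelihood test, Benjamini-Hochberg adjusted p = 6.15e-08). Over the group, 17 knockdown counts against 1822 control counts put *cnido-jun* at 1.03% of its control level, within exact 95% limits of 0.600% and 1.66% for counting error alone.

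To be called lower or higher, a gene had to reach an adjusted p of 0.05 or less and a fold change of 1.5 or more, the limits the study used. Of the 19001 genes tested, 4.23% were called lower (803) and 1.21% higher (229), and scaling by library size alone gave 660 and 21. By log2 fold change, *cnido-jun* had the 41st lowest value of all tested genes. Within pairs 1 to 5 the log2 ratio of knockdown to control was −7.75, −7.12, −6.06, −5.72 and −6.24. With 1 to 6 knockdown counts behind each, the order of these ratios is not resolved. The log2 fold change became −6.66 without pair 3 (edgeR adjusted p = 2.45e-07) and −6.10 in the batch of pairs 4 and 5 taken alone (edgeR adjusted p = 1.83e-05). The other batches hold 1 pair each and give no test of their own.

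**Figure D1:**
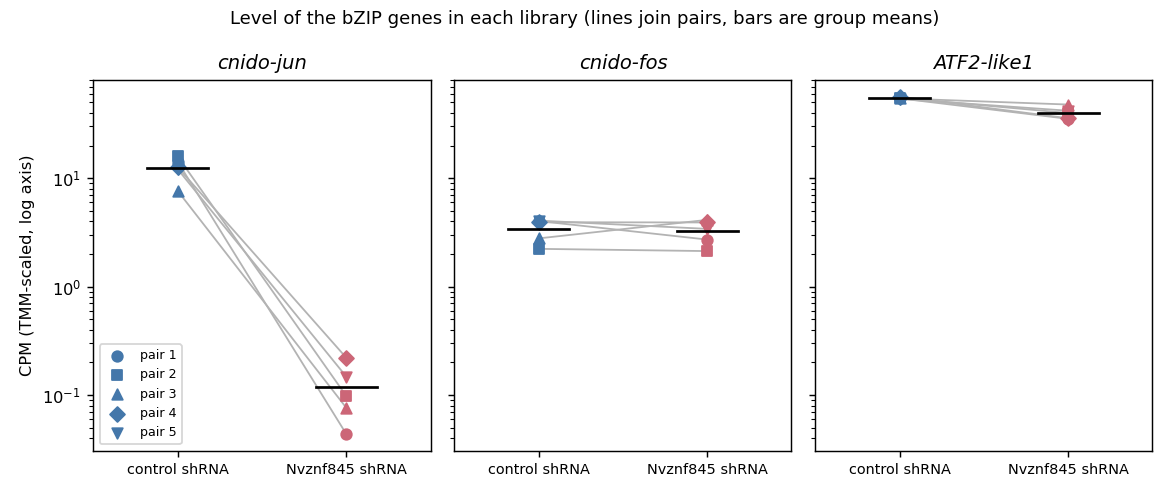
Level of *cnido-jun*, *cnido-fos* and *ATF2-like1* in each library, in TMM-scaled CPM on a log axis, with control libraries on the left and *Nvznf845* shRNA libraries on the right of each panel. Symbols mark pairs 1 to 5, grey lines join the libraries of a pair and black bars are group means; *cnido-jun* lies at 7.62 to 15.9 CPM in controls and at 0.0438 to 0.221 after knockdown, while the *cnido-fos* groups overlap.

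*cnido-fos*, the gene named after the other AP-1 subunit, was at 4.02, 2.23, 2.78, 3.92 and 4.06 CPM in control libraries 1 to 5. It was at 2.72, 2.1, 4.12, 3.91 and 3.41 CPM in knockdown libraries 1 to 5. The groups overlapped over nearly their whole range, and pair 2 held the lowest library of each group. The means were 3.40 ± 0.844 and 3.26 ± 0.832 CPM (SD, n = 5 each), a difference of −0.074 on the log2 scale (SE 0.235; edgeR adjusted p = 0.974), so the gene was not called. The 95% interval of −0.59 to 0.44 allows a knockdown level between 66.5% and 136% of control. A change of the size seen for *cnido-jun* lies far outside it, whereas a fall of about 1.5-fold lies at its edge.

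The within-pair log2 ratios of *cnido-fos* were −0.56, −0.071, 0.57, −0.0052 and −0.25 in pairs 1 to 5, lower in 4 of the 5. The single rise is in pair 3. Leaving that pair out gave −0.24 (edgeR adjusted p = 0.794), and the batch of pairs 4 and 5 gave −0.14 (edgeR adjusted p = 0.814). The value was positive without the knockdown library of replicate 2 (0.051) and without pair 1 (0.041), so its sign is not settled. The gene had 53 to 162 counts per library, which leaves 10.6% (controls) and 11.6% (knockdown) of relative spread from counting alone, against a measured spread of 24.8% and 25.6% (SD over mean).

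*ATF2-like1*, named after a bZIP factor of the ATF/CREB group, was the most evenly expressed of the 3 genes and was moderately lower after knockdown. Its control libraries 1 to 5 were at 54.4, 55.1, 54.4, 56.5 and 53.8 CPM. Its knockdown libraries 1 to 5 were at 35.3, 39.9, 47.7, 35.7 and 41.9 CPM. Every knockdown library lay below every control library, as was the case for 4.75% of the genes tested. The means were 54.8 ± 1.04 and 40.1 ± 5.12 CPM (SD, n = 5 each), a difference of −0.45 on the log2 scale (SE 0.0995, 95% interval −0.67 to −0.23; edgeR adjusted p = 0.0160).

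This passes the limit on the adjusted p, as do 4.46% of the tested genes on the lower side, but the fold change is under 1.5, so *ATF2-like1* was not called. The within-pair log2 ratios were −0.63, −0.47, −0.19, −0.66 and −0.36, with the smallest difference in pair 3. Leaving pair 3 out gave −0.53 (edgeR adjusted p = 0.00393), and the batch of pairs 4 and 5 gave −0.52 (edgeR adjusted p = 0.0830). Over all single libraries and pairs left out in turn, the adjusted p from edgeR ran from 0.00295 to 0.140. By other settings it was 0.0618 with upper-quartile normalization in edgeR, and it was 1.00 after rounding both in edgeR with library size alone and in limma on log2(TPM + 1). Among the libraries and pairs left out, it exceeded 0.05 without the knockdown library of replicate 4 (0.0557) and without pair 1, 2, 4 or 5 (0.0859, 0.0955, 0.140 and 0.0888).

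**Figure D2:**
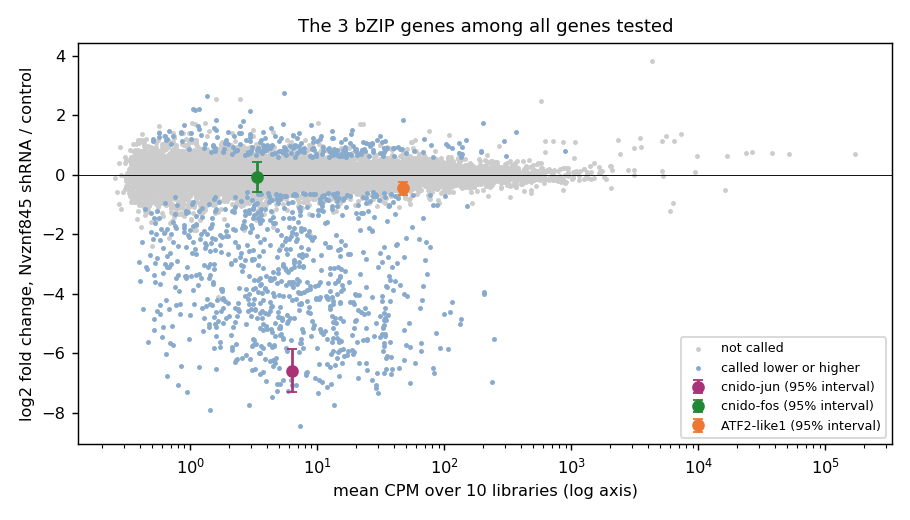
Log2 fold change (*Nvznf845* shRNA over control) against the mean CPM over the 10 libraries, on a log axis, for all 19001 genes tested; blue points were called lower or higher, grey points were not, and the bars on the 3 bZIP genes are 95% intervals. *cnido-jun* lies at −6.59 among the lower genes, *cnido-fos* at −0.074 within the grey band, and *ATF2-like1* at −0.45 at the edge of it.

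Levels of different genes can be compared only per length, for which the authors' TPM were used. Each of the 3 genes has 1 transcript model, of 2544 bases for *cnido-jun*, 1080 bases for *cnido-fos* and 2861 bases for *ATF2-like1*. In the controls *ATF2-like1* was the highest, at 33.5 ± 8.97 TPM (SD, n = 5), above both others in all 5 libraries. *cnido-jun* was at 8.87 ± 3.32 TPM and *cnido-fos* at 6.71 ± 2.76 TPM (SD, n = 5 each), which puts them at the 50.1 and 44.0 percentile of the tested genes. *cnido-jun* was above *cnido-fos* in 4 of the 5 control libraries, by 1.06 to 2.54 times, and was at 0.978 times its level in the control of pair 3. These neighbours in the order thus did not differ beyond their spread.

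After knockdown the order was *ATF2-like1* (23.6 ± 8.42 TPM), *cnido-fos* (5.98 ± 2.39 TPM) and *cnido-jun* (0.0871 ± 0.0651 TPM; SD, n = 5 each), and it was the same in all 5 libraries. *cnido-fos* was 49.1 to 174 times as high as *cnido-jun* per length. *cnido-jun* went from the 50.1 to the 0.458 percentile of the tested genes, while *cnido-fos* was at the 43.6 percentile. In TPM the *cnido-fos* libraries of pairs 4 and 5, the shared batch, were at 8.38 to 9.63 and those of pairs 1 to 3 at 3.14 to 6.50, but TPM carry no correction of library sizes between libraries. On the TMM scale pairs 4 and 5 were at 3.41 to 4.06 CPM, within the range of pairs 1 to 3 (2.1 to 4.12 CPM).

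Because both genes are measured in the same library, their ratio needs no scaling between libraries, and it tests directly whether the partners changed alike. The log2 ratio of *cnido-jun* to *cnido-fos* counts was 1.81, 2.82, 1.45, 1.68 and 1.57 in control libraries 1 to 5. It was −5.38, −4.23, −5.18, −4.03 and −4.41 in knockdown libraries 1 to 5. The groups were separate, and the ratio was lower in every pair. The difference of the group means was −6.51 on the log2 scale (1.87 ± 0.550 in controls, −4.65 ± 0.599 after knockdown, SD, n = 5 each; p = 0.00794 by the two-sided exact permutation test, the smallest this design allows, adjusted p = 0.0119 over the 3 gene pairs compared).

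The log2 ratio of *cnido-jun* to *ATF2-like1* fell by 6.12 (−2.18 ± 0.397 in controls, −8.29 ± 0.71 after knockdown, SD, n = 5 each; exact permutation p = 0.00794, adjusted p = 0.0119 over the 3 pairs). The log2 ratio of *cnido-fos* to *ATF2-like1* was −4.04 ± 0.390 in controls and −3.65 ± 0.374 after knockdown (SD, n = 5 each), a difference of 0.40 (two-sided exact permutation p = 0.127, also over the 3 pairs). The ranges of this ratio overlap between the groups. Within pairs 1 to 5 it was higher after knockdown by 0.063, 0.39, 0.76, 0.66 and 0.11, that is, in all 5 pairs. An exact sign-flip test over the 5 pairs gave p = 0.0625 for each of the 3 ratios, the smallest it can give. Without the libraries of pair 2 the difference for *cnido-fos* and *ATF2-like1* was again 0.40, with an exact permutation p of 0.0286, and without only the knockdown library of that pair it was 0.54 with an exact permutation p of 0.0317. Without pair 3 the 3 differences were −6.48, −6.18 and 0.31 (exact permutation p = 0.0286, 0.0286 and 0.314). So a fall shared by *cnido-jun* and *cnido-fos* was not seen, while a difference between *cnido-fos* and *ATF2-like1* was not resolved at this number of libraries.

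**Figure D3:**
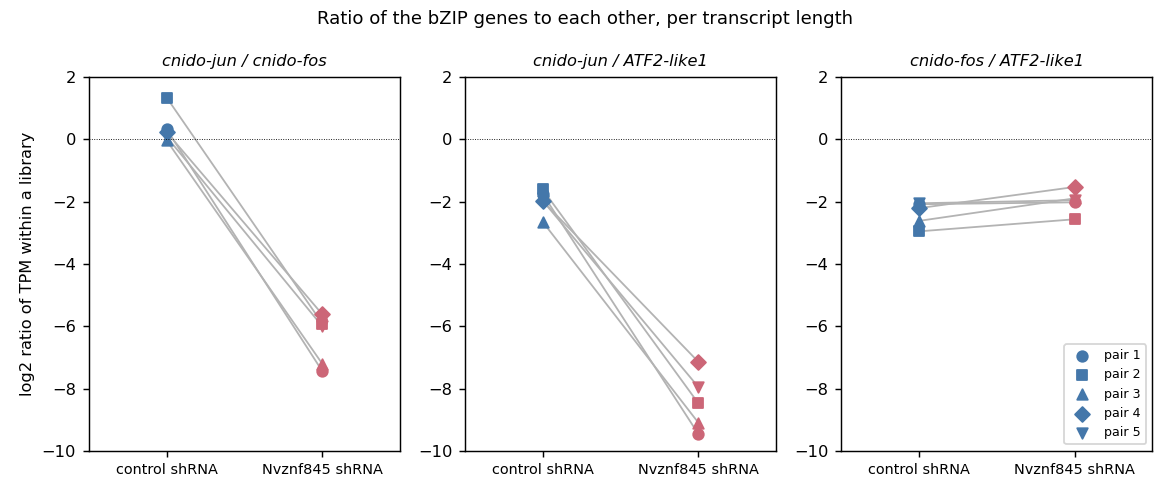
Log2 ratio of the TPM of 2 genes within each library, for the 3 pairs of bZIP genes, with control libraries on the left and *Nvznf845* shRNA libraries on the right of each panel; symbols mark pairs 1 to 5 and grey lines join the libraries of a pair. The ratio of *cnido-jun* to *cnido-fos* lies between −0.032 and 1.35 in controls and between −7.44 and −5.62 after knockdown, while that of *cnido-fos* to *ATF2-like1* overlaps between the groups.

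Apart from the knockdown, the 3 genes differed in how much they varied between libraries of a group. The standard deviation of log2 CPM within groups was 0.603 for *cnido-jun*, 0.392 for *cnido-fos* and 0.129 for *ATF2-like1*, against a median of 0.275 over the 16805 genes with at least 1 CPM. For *cnido-jun* this spread includes knockdown libraries of 1 to 6 counts, and *ATF2-like1* had the most counts of the 3 genes in every library. In the *cnido-jun* controls, the library of pair 3 was 0.67 below the group mean on the log2 scale and that of pair 2 was 0.39 above it. For *cnido-fos*, both libraries of pair 2 lay 0.57 below their group means, and both libraries of pairs 4 and 5 lay above theirs, by 0.11 to 0.30. In pair 3 the 2 libraries lay on opposite sides, 0.25 below in the control and 0.38 above after knockdown.

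In a model with the replicate number beside the condition, the largest fitted difference between pairs was 0.96 on the log2 scale for *cnido-jun*, 0.84 for *cnido-fos* and 0.22 for *ATF2-like1*. Without pair 3 it was 0.26 for *cnido-jun* and 0.11 for *ATF2-like1*, and without pair 2 it was 0.22 for *cnido-fos*. None of the 3 passed edgeR's test of the replicate number (adjusted p = 0.642, 0.574 and 0.846; unadjusted p = 0.230, 0.131 and 0.737), nor the likelihood ratio test of DESeq2. Of all genes tested, 0.300% passed the test in edgeR. Scaled by library size alone, all 3 passed it (edgeR adjusted p = 0.0193, 0.00321 and 0.00330), but so did 65.2% of all genes tested on that scale, so the count of 3 is not read as a result about them.

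**Figure D4:**
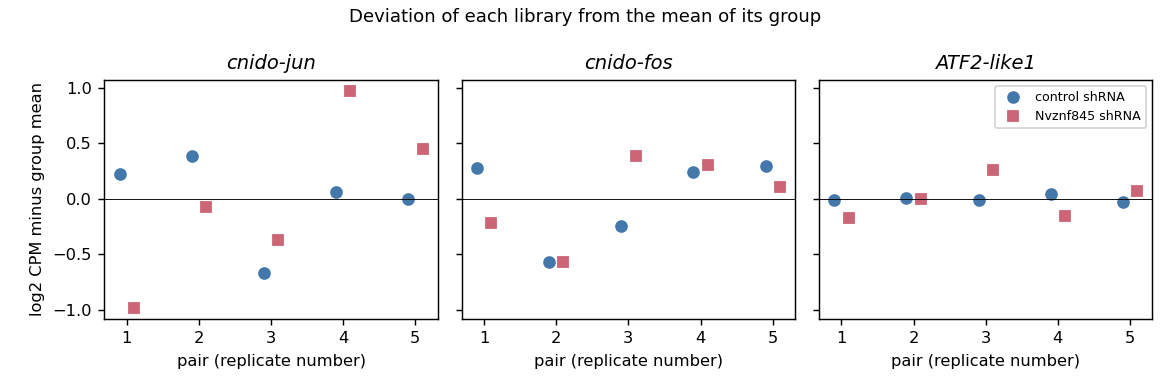
Deviation of log2 CPM from the mean of the library's group, by pair, for *cnido-jun*, *cnido-fos* and *ATF2-like1*; circles are control and squares *Nvznf845* shRNA libraries. *cnido-fos* is 0.57 below the mean in both libraries of pair 2, *ATF2-like1* controls stay within 0.044 of their mean, and the *cnido-jun* knockdown libraries rest on 1 to 6 counts each.

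The genes whose pattern was most like that of *cnido-jun* over the 10 libraries are given in the files by number only. They were NV2.10334, NV2.20492 and NV2.8704, with Pearson's r of log2 CPM of 0.996, 0.996 and 0.995 and Spearman's rho of 0.939, 0.915 and 0.952. All these points share the knockdown contrast, and 428 of the 16804 other genes with at least 1 CPM had an r of at least 0.95. The log2 fold changes of the 3 genes were −4.28, −3.41 and −6.46. Among the published cnidocyte genes the minicollagen gene *Ncol* was the most like it (r = 0.986, rho = 0.854, rank 39). Next were *ggt* and *NEP3-like* (r = 0.986 and 0.984, rho 0.830 and 0.758). After knockdown *Ncol* averaged 0.00494 CPM and NV2.8704 averaged 0.0188 CPM, so their r rests on the group contrast with almost no knockdown counts. With *cnido-jun*, *ATF2-like1* had an r of 0.879 and *cnido-fos* one of 0.132.

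With the group means removed, the likeness of *cnido-jun* to its partners was weak, with r = 0.253 for *cnido-fos* and −0.057 for *ATF2-like1* (n = 10 libraries, rho 0.212 and 0.188). Without the 2 libraries farthest from the median of *cnido-jun* these were −0.030 and −0.22, while leaving out the 2 farthest for *cnido-fos* gave 0.657 with *cnido-jun*, so the value rests on few libraries. The most alike gene on this measure was NV2.9571 (r = 0.971), followed by NV2.22501 and NV2.2309 (r = 0.917 and 0.915). They are the highest of 16804 genes, of which 4 had an r of at least 0.90 with *cnido-jun*. Without the 2 libraries farthest from its median these r were 0.945, 0.757 and 0.889. The knockdown deviations of *cnido-jun* rest on 1 to 6 counts per library, so counting error enters all of these values. *cnido-fos* was most like NV2.13216, NV2.9932 and NV2.9110 over the 10 libraries (r = 0.922, 0.918 and 0.896), with log2 fold changes of 0.042, 0.056 and −0.10 between the groups. Only 2 of 16804 genes had an r of at least 0.90 with it. Without both libraries of pair 2, the farthest from its median, these r were 0.917, 0.843 and 0.761. With group means removed, NV2.1482 was the most alike (r = 0.954). Of the published cnidocyte genes, *Nkx2.2D* (r = 0.503) and the Sox gene *SoxA* (r = 0.476) came nearest to *cnido-fos* in level, at rank 689 and 838, followed by the forkhead gene *foxA* (r = 0.319). Without both libraries of pair 2 this order did not hold, with r = 0.168, 0.353 and 0.726 for *Nkx2.2D*, *SoxA* and *foxA*.

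Set among the 15 transcription factor genes of the published list that have a gene number, *Nvznf845* aside, *cnido-jun* had the largest fall and *cnido-fos* the smallest difference in size. In that list 7 genes were called lower, *cnido-jun* among them, and the other 8 were not called. The share called lower was 46.7% in the list and 4.23% over all genes tested. The median log2 fold change of the list was −1.18 against 0.0099 for all tested genes. The study's list was made of genes that earlier work placed in cnidocytes. Nearest to *cnido-jun* was the paired-box gene *paxA* (log2 fold change −5.74, 95% interval −6.18 to −5.30), whose interval overlaps that of *cnido-jun*. Nearest to *cnido-fos* in size was the homeobox gene *Nkx2.2D* (0.19, 95% interval −0.20 to 0.59). The forkhead gene *foxE-like*, from 38.3 ± 6.56 to 26.3 ± 3.60 CPM (SD, n = 5 each), differed by −0.54 on the log2 scale (edgeR adjusted p = 0.0425). Its fold change was under the limit, so it was not called. Its groups overlapped, with the control of pair 3 (30.2 CPM) below the knockdown library of pair 2 (30.5 CPM). The study reports no effect of *Nvznf845* knockdown on *foxE-like* expression by in situ hybridization, a different measure from read counts of whole embryos. Its list of published genes, compared with RNA-seq targets under the 1.5-fold limit, does not mark *foxE-like* as regulated by *Nvznf845*. The 95% interval of −0.85 to −0.24 for *foxE-like* overlaps those of both *ATF2-like1* and *cnido-fos*.

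The remaining level of *cnido-jun* can be read beside that of the targeted gene. In knockdown libraries 1 to 5 *Nvznf845* was at 9.50, 12.2, 6.80, 12.9 and 10.8 CPM. The library of pair 4 had the highest value of both genes. The lowest *Nvznf845* value was in pair 3 and the lowest *cnido-jun* value in pair 1, and with 5 libraries and so few counts no relation was computed. Relative to control, *Nvznf845* was at 19.3% of its counts and *cnido-jun* at 1.03%.

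The estimated counts of *cnido-jun* and *cnido-fos* were within 0.01 of a whole number in 8 of 10 libraries each, whereas those of *ATF2-like1* were not in any of the 10. Salmon gives fractional counts where a read is divided among several transcripts, so the level of *ATF2-like1* depends in part on that division. The *cnido-jun* counts that were not whole came from the controls of pairs 3 and 5, and so did those of *cnido-fos*.

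**Figure D5:**
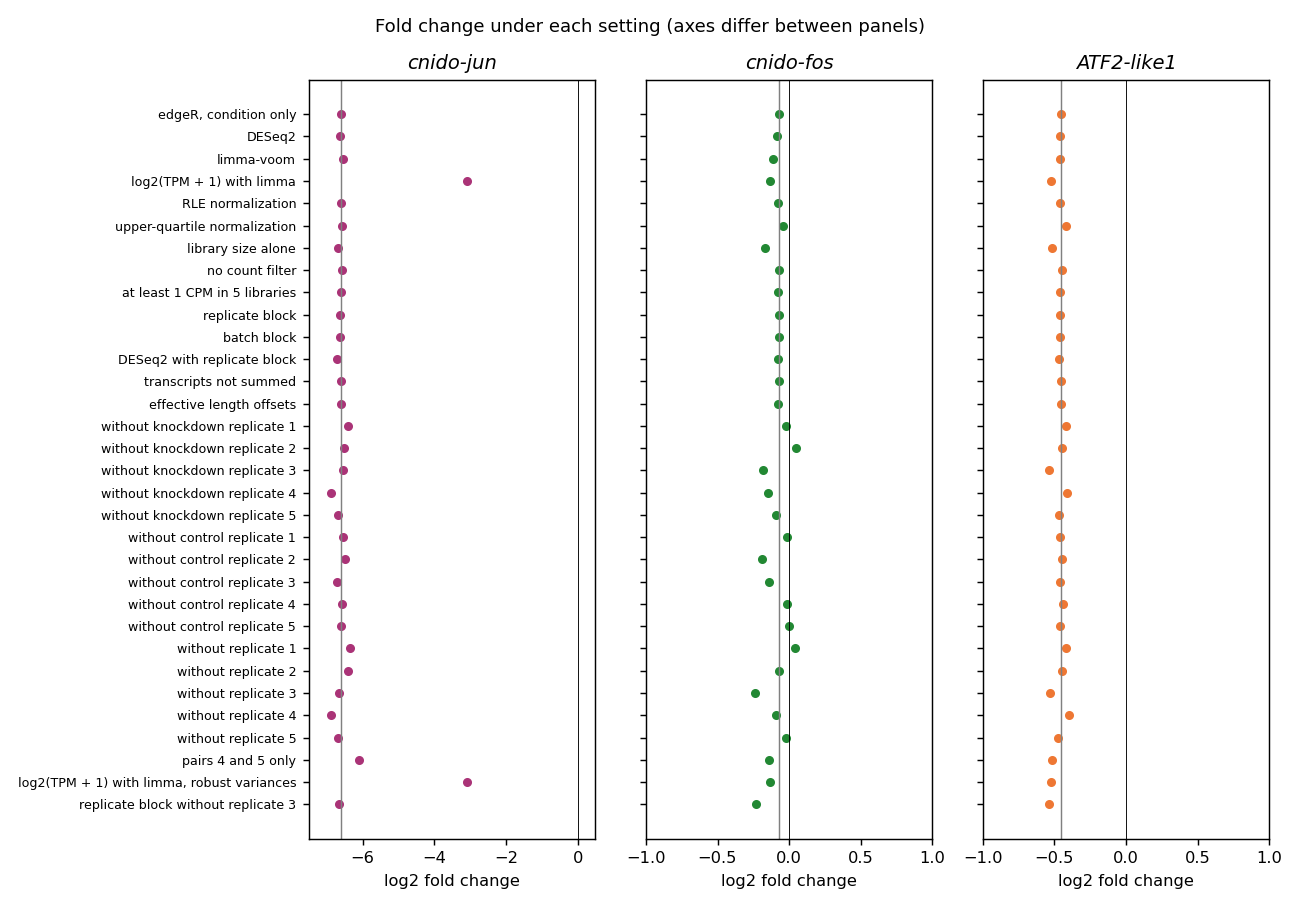
Log2 fold change of *cnido-jun*, *cnido-fos* and *ATF2-like1* (1 panel each, with different axes) under each setting listed on the left; the grey line is the value of the edgeR fit with condition as the only term and the black line is 0. *cnido-jun* stays below −6 except on log2(TPM + 1) values (−3.09), *cnido-fos* lies between −0.24 and 0.051, and *ATF2-like1* between −0.54 and −0.40.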

How the data were processed

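The members and lists were chosen with earlier results of these data known. Libraries were prepared from poly(A) RNA and sequenced as paired-end reads of 150 bases; the authors ran Salmon in Galaxy on the Nvec200 models (its version is not given in the sources used here). Per transcript, the deposited files hold estimated counts and the authors' TPM, beside transcript length and effective length (other values, in bases). The 35819 transcripts were then added up into 24520 genes by characters 5 to 10 of their names, and the sums were rounded.

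Counts were tested with edgeR 4.0.16 in R 4.3.3 (TMM, filterByExpr with a minimum count of 10, robust glmQLFit, glmQLFTest, Benjamini-Hochberg over the 19001 genes tested), with condition as the only term. The standard error is the fold change over the square root of F. Within-library ratios used counts plus 0.5 and an exact permutation test over 252 splits. Log2 CPM used a prior count of 0.5. No file used here pairs the gene numbers with sequences, and the reference table matched 0 of the 38 listed numbers, so no sequence or position is given. Nothing states that the pools came from separate parents, so p-values measure the spread between pools.

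Gene names and numbers were taken from the study's supplementary list, a page document, and all 38 numbers were found in the files. The genes named were the 3 bZIP genes, *Nvznf845*, *paxA* and *foxE-like* beside them, the transcription factor genes with the largest and smallest fold changes, and the 3 genes most like each member. The values of 1 listed transcription factor gene are not reported here. The labels give both libraries of a replicate number the same batch, and the study describes the replicates as paired. Once group means were removed, the correlation of paired libraries over genes was 0.433, −0.0355, 0.188, 0.138 and 0.571 (pairs 1 to 5). Knockdown libraries 1 and 5 were most like their own controls. Knockdown library 2 was most like control 5 (0.284), library 3 most like control 1 (0.354) and library 4 most like control 2 (0.157). Alternatives were DESeq2 1.42.0, limma 3.58.1 (voom, and log2(TPM + 1)), other scaling, filters and thresholds, the replicate or batch block, effective length offsets, transcripts not summed, and libraries or pairs left out. The log2(TPM + 1) test first used robust variances; plain ones replaced them after its adjusted p-values had been seen, and both are kept in the closing section.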

Additional observations from a re-analysis of the deposited data

Results flagged for a closer look

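The log2 ratio of *cnido-jun* to *cnido-fos* counts in the control library of replicate 2 was 2.82, against 1.81 in the nearest of the other 4 controls. Its gap to that library is 0.737 of the range of the group, above Dixon's limit for 5 libraries. In this library *cnido-jun* had its highest control level (15.9 CPM) and *cnido-fos* its lowest (2.23 CPM). Chance alone marks about 1 in 20 such groups, and 18 were examined. These 18 are not independent, because they hold CPM, TPM and ratios of the same genes in the same libraries.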

How the results depend on the processing

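The fall of *cnido-jun* was called under all 33 alternatives, with log2 fold changes of −6.89 to −6.37 when libraries or pairs were left out; outside that range lay pairs 4 and 5 alone (−6.10) and log2(TPM + 1) (−3.09), where the added 1 is larger than the knockdown level. *cnido-fos* was never called, with −0.24 to 0.051 over the left-out libraries and pairs. *ATF2-like1* ran from −0.54 to −0.40 and was called only when no limit was set on the fold change (−0.45), with an adjusted p above 0.05 under upper-quartile or library size scaling, on log2(TPM + 1) and without several libraries or pairs. With the replicate block the log2 fold changes were −6.64, −0.073 and −0.46 (edgeR adjusted p = 5.27e-06, 0.941 and 0.0473), and the block changed no call of these genes; the block without pair 3, chosen after seeing the data, gave −6.65, −0.23 and −0.54. Sign-flip tests over pairs, which cannot go below 0.0625, left the ratios of *cnido-jun* to *cnido-fos* (−6.51) and to *ATF2-like1* (−6.12) past no threshold. The ratio of *cnido-fos* to *ATF2-like1* ran from 0.25 to 0.54 over left-out libraries, past 0.05 only without pair 2 or its knockdown library. Scaling by library size alone raised the largest difference between pairs to 2.16 (*cnido-jun*), 1.72 (*cnido-fos*) and 1.45 (*ATF2-like1*). The number of higher genes, 229, was 28 on log2(TPM + 1) and 38 there with robust variances, which were run first and replaced after seeing the adjusted p-values (no call of the 3 genes differed), 21 by library size alone, 349 with the batch block, 377 with the replicate block without pair 3, 113 in pairs 4 and 5, 116 at an adjusted p of 0.01 and 118 to 258 over left-out libraries and pairs. Depth limits the knockdown level of *cnido-jun*, which rests on 17 counts.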
